A study of Mus musculus with 2 samples.

Results

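The genes described here are the embryonic and adult globins of the mouse: Hbb-y, Hbb-bh1, Hbb-bs and Hbb-bt, which encode beta-type chains, and Hba-x, Hba-a1 and Hba-a2, which encode alpha-type chains. They were chosen by symbol and are 7 of the 33456 genes listed for each library. They were followed across the cells of 1 yolk sac (YS) library, with 1 embryoid body (EB) library as background, both from the strain C57BL/6. The YS library held yolk sacs of E9.5 and E10.5 embryos in equal numbers, pooled before dissociation with collagenase. Dead cells and about 70% of the cells that stained for Ter119, a red cell surface antigen, were sorted out, so the number of red cells kept is not their number in the tissue. The EB library held live-sorted cells from embryoid bodies, aggregates of differentiating embryonic stem cells, after 4 days of culture in serum, which the labels describe as favouring hemangiogenic mesoderm. Both suspensions were frozen and thawed before loading on the 10x Chromium system. The labels do not say which yolk sac a cell came from, and there is 1 library of each kind, so no test between samples was possible and E9.5 and E10.5 cells cannot be told apart.

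A haemoglobin molecule pairs alpha-type with beta-type chains, each holding a heme group. The first red cells of the embryo, the primitive erythroid cells, are made in the yolk sac and use the embryonic chains of Hbb-y, Hbb-bh1 and Hba-x. As these cells mature in the mouse, Hbb-bh1 gives way to Hbb-y and Hba-x gives way to the adult-type Hba-a1 and Hba-a2. Red cells of the later, definitive lineage use mainly the adult-type Hbb-bs and Hbb-bt with Hba-a1 and Hba-a2.

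The beta-type genes lie on the minus strand of chromosome 7 (GENCODE M21, GRCm38), in the order Hbb-y, Hbb-bh1, Hbb-bs, Hbb-bt in the direction of transcription. Hbb-y spans chr7:103851749-103853216, Hbb-bh1 spans chr7:103841637-103843164, Hbb-bs spans chr7:103826534-103828096 and Hbb-bt spans chr7:103812524-103813996. The alpha-type genes lie on the plus strand of chromosome 11, with Hba-x at chr11:32276400-32278116, Hba-a1 at chr11:32283511-32284465 and Hba-a2 at chr11:32296489-32297298. All 7 are annotated as protein coding. The copies Hbb-bs and Hbb-bt have coding sequences that differ at 1 of 444 bases, but the stretches after their stop codons differ at 37 positions over the 131 bases of the shorter one. The copies Hba-a1 and Hba-a2 differ at 1 of 429 coding bases, and the 74 bases annotated after the stop codon of the shorter transcript are all found in the longer one. The split between Hba-a1 and Hba-a2 is therefore uncertain, since how reads that match both copies were counted is not given in the sources used here.

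Promoter windows from RefSeq (GRCm38.p6) were matched for 6 of the 7 genes, by symbol, and 5 are shown. For Hbb-bh1 no window was matched. The window of Hba-a2, 98.0% identical to that of Hba-a1, is not printed. Each line gives the 250 bases before the annotated start, 5′ to 3′ on the strand of the gene. Capitals mark the letters searched on both strands. GATA factors bind forms of AGATAA. The factor Klf1 and its relatives bind CACCC. The complex NF-Y binds CCAAT. A promoter box for the general machinery is TATAAA. The factors NF-E2 and AP-1 bind forms of TGACTCA. The windows are chr7:103853208-103853457 for Hbb-y, chr7:103827929-103828178 for Hbb-bs and chr7:103813924-103814173 for Hbb-bt, all on the minus strand, and chr11:32276350-32276599 for Hba-x and chr11:32283422-32283671 for Hba-a1, both on the plus strand.
Hbb-y: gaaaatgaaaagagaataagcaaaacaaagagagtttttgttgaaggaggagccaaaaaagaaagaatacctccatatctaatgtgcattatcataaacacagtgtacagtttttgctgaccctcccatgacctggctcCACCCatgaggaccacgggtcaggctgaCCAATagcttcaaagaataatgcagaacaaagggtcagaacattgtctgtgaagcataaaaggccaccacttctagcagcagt
Hbb-bs: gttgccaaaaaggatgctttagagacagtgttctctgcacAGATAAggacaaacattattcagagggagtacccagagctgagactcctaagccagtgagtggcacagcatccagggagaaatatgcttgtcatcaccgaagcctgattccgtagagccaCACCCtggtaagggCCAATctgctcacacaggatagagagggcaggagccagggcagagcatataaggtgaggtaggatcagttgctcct
Hbb-bt: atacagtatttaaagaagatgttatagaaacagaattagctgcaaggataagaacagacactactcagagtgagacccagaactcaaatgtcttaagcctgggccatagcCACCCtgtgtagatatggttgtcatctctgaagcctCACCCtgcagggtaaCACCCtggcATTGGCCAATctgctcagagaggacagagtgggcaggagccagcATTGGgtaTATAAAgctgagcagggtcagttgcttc
Hba-x: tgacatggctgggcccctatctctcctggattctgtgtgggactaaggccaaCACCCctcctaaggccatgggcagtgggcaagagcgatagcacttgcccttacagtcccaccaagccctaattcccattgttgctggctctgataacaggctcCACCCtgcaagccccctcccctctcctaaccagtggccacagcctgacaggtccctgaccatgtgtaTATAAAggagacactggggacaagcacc
Hba-a1: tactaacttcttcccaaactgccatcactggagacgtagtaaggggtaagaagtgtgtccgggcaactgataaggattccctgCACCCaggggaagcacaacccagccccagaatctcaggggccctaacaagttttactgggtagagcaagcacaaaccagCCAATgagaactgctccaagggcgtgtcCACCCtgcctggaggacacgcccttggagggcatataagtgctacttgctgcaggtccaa
CACCC was found in 6 of 6 member windows of 300 bases (250 before and 50 after the start), and in 57.5% of all 32851 windows. CCAAT was found in 5 of 6, the exception being Hba-x, against 37.4% of all windows. TATAAA was found in the windows of Hbb-bt and Hba-x and in 13.6% of all. AGATAA was found in 1 member window, that of Hbb-bs, and in 11.2% of all, and TGACTCA in the same window, inside the transcript, and in 5.20% of all. Hbb-bt held 3 copies of CACCC and 3 of CCAAT, while Hbb-bs held 1 of each. A pair of the CCAAT matches of Hbb-bt lie end to end on opposite strands. The Hbb-bs and Hbb-bt windows were 71.7% identical and those of Hba-a1 and Hba-a2 98.0% identical. A match is a description of letters and shows no binding. Only these exact letters were searched, so other forms of a site were neither counted nor marked. The letters TGATAA, for example, stand in lower case in the lines of Hba-x and Hba-a1, and on the opposite strand in that of Hbb-y. A window without a match may therefore hold another form of the site.

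Cells were barcodes whose unique molecular identifiers (UMIs, tags that count captured RNA molecules) reached a set minimum of 6537 in YS and 6172 in EB, with at most 10% of UMIs from mitochondrial genes. This left 775 YS cells (median 28461 UMIs) and 1878 EB cells (median 25547 UMIs), and 2 cell barcodes were common to both libraries. Levels are percent of UMIs or CPM (the share of a gene in the UMIs of a group of cells, where 1% is 10000 CPM). Both count molecules and were not divided by gene length. Intervals in brackets are 95% exact intervals (Poisson, Clopper-Pearson or conditional binomial) and cover counting error only.

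Globin RNA was found almost wholly in 1 group of YS cells. The 7 genes held 1751835 UMIs, 7.24% of the UMIs of all YS cells, against 11 UMIs in all EB cells. In EB cells Hba-a2 had 7 UMIs and Hba-a1 had 4, at most 1 per cell for each gene, and the other 5 genes had 0. A count of 0 in EB cells leaves room for a level of 0.0592 CPM, or 3 UMIs over all of them. All 7 genes were more than 2-fold higher in YS than in EB cells, as were 21.5% of the 15621 genes compared. Hbb-bs, at 0 UMIs in EB cells, was at least 4460.4-fold higher in YS cells, and Hba-a2 was 21886-fold higher (10622 to 54437). When the YS cells were clustered with every globin gene left out, 1 of 12 clusters, of 153 cells, was erythroid-like by its markers, among them Alas2 (the first enzyme of erythroid heme synthesis) and Slc25a37 (the mitochondrial iron importer). Slc25a37 was seen in all 153 of its cells and Slc4a1, the anion exchanger of the red cell membrane, in 150. All 14 erythroid markers in the gene list were detected there, and the marker list of each other cell type summed to at most 0.00513% of UMIs. That highest sum was of the hematopoietic progenitor list, which held 0.0984% in its own cluster and up to 0.0345% in a single erythroid-like cell. Of 12 megakaryocyte markers 5 had 0 UMIs there, but Itgb3 was seen in 77 and Itga2b in 49 of the 153 cells.

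The globin share of UMIs separated the same cells again. In the erythroid-like cells it was 31.6% over pooled UMIs (31.57 to 31.65), and per cell the lowest was 13.1%, the median 31.1% and the highest 43.6%. Of the other 622 cells, 592 held under 0.1% globin, 28 held 0.1% to 1%, 1 held 1.89% and 1 held 12.02%. No cell lay between 1.89% and 12.02%. The cell of 12.02% was in the hematopoietic progenitor-like cluster, had 92154 UMIs, of them 19 of Alas2 and 10 of the progenitor surface marker Cd34, and was 1 of the 2 YS cells that Scrublet marked as doublets. The other marked cell was not erythroid-like, and the marked cells were kept.

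**Figure D1:**
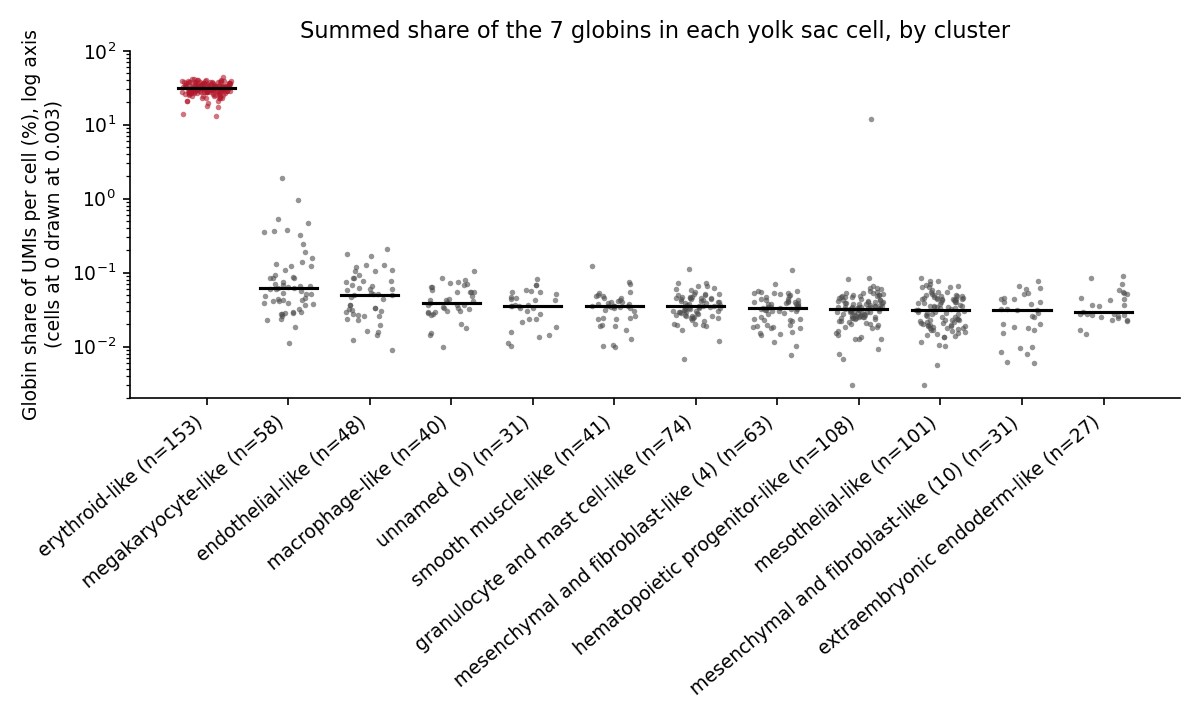
Each point is 1 of the 775 YS cells, placed by cluster along the x axis, and the y axis is the summed share of the 7 globins in the UMIs of the cell in percent (log axis). Black lines are cluster medians, and the 153 erythroid-like cells (red) lie between 13.1% and 43.6%.

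Among the embryonic beta-type genes Hbb-y stood first and Hbb-bh1 second. Hbb-y made up 13.9% of the UMIs of the erythroid-like cells (per cell 0.904% to 20.7%, median 14.2%). Hbb-bh1 made up 6.60% (4.28% to 9.73%, median 6.59%). Hbb-bh1 thus varied much less between cells than Hbb-y, with an SD of 0.936 percentage points around a mean of 6.54%, against 3.88 around 13.8% for Hbb-y. All 153 cells held both transcripts. The ratio of Hbb-bh1 to Hbb-y had a median of 0.473 (lowest 0.286, highest 6.01).

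The alpha-type genes followed in the order Hba-x, Hba-a1, Hba-a2. Hba-x, the embryonic gene, made up 5.86% of UMIs (2.93% to 12.1%, median 5.43%), Hba-a1 made up 3.62% (0.976% to 7.57%, median 3.37%) and Hba-a2 made up 1.32% (0.482% to 2.45%, median 1.27%). The per-cell ranges of neighbours in this order overlap. The ratio of Hba-x to Hba-a1 had a median of 1.56 (0.740 to 5.17). Alpha-type chains were 34.2% of all globin UMIs (22.5% to 52.2% per cell), a median of 0.506 alpha-type UMIs for each beta-type UMI.

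The adult-type beta genes were the rarest. Hbb-bt made up 0.175% of UMIs (per cell 0 to 1.86%, median 0.0540%) and Hbb-bs 0.113% (0 to 1.44%, median 0.0597%), so that Hbb-bt was higher over pooled UMIs while the medians stood in the other order. Their sum was 1.39% of beta-type UMIs (1.36 to 1.41), with a median cell of 0.784%. The adult-type alpha genes, by contrast, held 0.862 UMIs for each Hba-x UMI in the median cell. All adult-type UMIs over all embryonic-type UMIs had a median of 0.192 (0.128 to 0.481).

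Minor globins of the same loci were counted in the same cells. Hbb-bh2, between Hbb-bs and Hbb-bh1, had 51 UMIs in YS cells, all of them in 37 erythroid-like cells. Hbq1b, a theta-type gene between Hba-a1 and Hba-a2, had 427 UMIs, 424 of them in erythroid-like cells. Myoglobin (Mb), neuroglobin (Ngb) and cytoglobin (Cygb) had 0 UMIs in the erythroid-like cells. Hbb-bh0 and the alpha-chain chaperone gene Ahsp were not analysed here.

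Outside the globins, genes whose pattern over the 775 YS cells was among the most like that of Hbb-y were Alas2 (Pearson r = 0.98 on log values), Slc25a37 (0.96), Hemgn (0.93), Slc4a1 (0.93), Blvrb (0.93), Acp5 (0.93) and Tspan33 (0.92), out of 7133 genes. These correlations describe 1 library in which the erythroid-like cells differ from the rest. Alas2 had 879 CPM in erythroid-like cells against 2.21 CPM in cells that were neither erythroid-like nor megakaryocyte-like.

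Globin RNA accumulates while red cells mature, and the globin composition was followed along the globin share. The 153 cells were ordered by globin share and divided into 4 bins of 39, 38, 38 and 38 cells, which held 24.7%, 29.5%, 32.7% and 37.7% globin. Hbb-bh1 as a share of Hbb-bh1 plus Hbb-y was 38.4%, 33.9%, 30.9% and 29.0% from the lowest to the highest bin, a difference of -9.36 percentage points (highest minus lowest). Hba-x as a share of alpha-type UMIs was 57.2%, 55.0%, 53.5% and 52.8%, a difference of -4.42 points. Both embryonic shares were lower in each bin than in the one before. The median cell of the highest bin had an Hbb-bh1 share of 28.5%, against 38.0% in the lowest. Single cells spread widely around these values: per-cell Hbb-bh1 shares ran from 22.2% to 85.7% over all cells, with a variance 135 times that of counting error.

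The adult-type beta share did not follow the order of the bins in the same way. It was 1.07%, 0.790%, 1.25% and 1.99%, a difference of 0.92 points, with the second bin the lowest. Of its 2 genes Hbb-bt differed more between the highest and lowest bin: it stood at 5.04 times its level in the lowest bin (4.70 to 5.41, per UMI of all genes), whereas Hbb-bs stood at 1.36 times (1.27 to 1.46). A few cells carried much of this: without the 6 cells of most Hbb-bt UMIs, 5 of them in the highest bin, the Hbb-bt level stood at 2.84 times. In the median cell Hbb-bt made up 0.135% of UMIs in the highest bin, against 0.0456% in the lowest, and adult-type beta made up 0.827% of beta-type UMIs, against 0.720%. The difference in adult-type beta share rested in part on 4 cells with 5% or more adult-type beta: without them, a choice made after the data were seen, the difference was 0.52 points. The other members were also compared per UMI of all genes. Hbb-y was 1.80 times as high in the highest as in the lowest bin and Hba-a1 1.72 times. Hba-x stood at 1.32 times, Hba-a2 at 1.24 times and Hbb-bh1 at 1.18 times. Per non-globin UMI, the measure used for other genes below, Hbb-y stood at 2.17 times and Hbb-bh1 at 1.43 times. The ordering uses these genes, so such ratios describe it and test nothing.

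**Figure D2:**
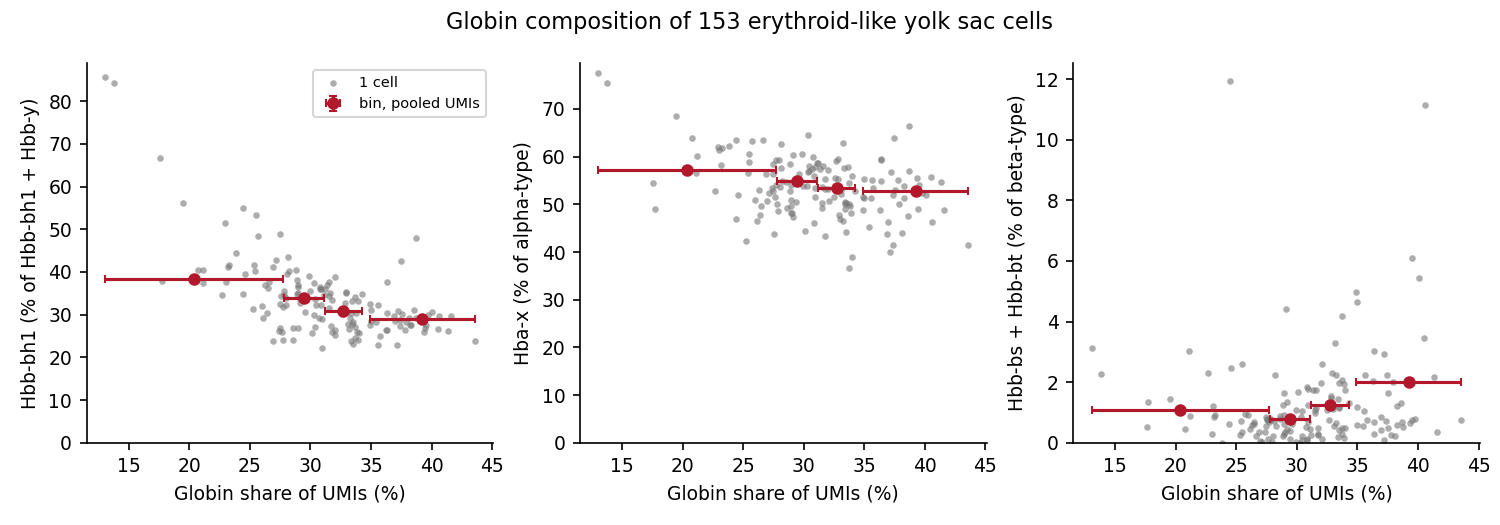
Each grey point is 1 of 153 erythroid-like YS cells, with its globin share of UMIs (%) on the x axis and, from left to right on the y axes, the Hbb-bh1 share, the Hba-x share and the share of Hbb-bs plus Hbb-bt (%). Red points are pooled UMIs of each bin, horizontal bars its range and vertical bars the 95% counting interval, and the Hbb-bh1 share falls across them to 29.0%.

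Depth and mitochondrial share moved with this ordering. The median cell had 23206, 31591, 34676.5 and 40253.5 UMIs from the lowest to the highest bin, and the median mitochondrial share was 1.39% in the highest bin and 2.37% in the lowest. Over the 153 cells the Spearman correlation of the Hbb-bh1 share was -0.57 with globin share, of which Hbb-y is the largest part, so that a negative value is partly built in. With the UMIs of the cell it was 0.02. The part of depth and of mitochondrial share in these differences was not tested. Cells were also ordered by a list of red cell membrane and late maturation genes that holds no globin. The Hbb-bh1 difference was then -4.28 points, the Hba-x difference -7.22 points and the adult-type beta difference 0.91 points. From the lowest to the highest bin of this ordering, the Hbb-bh1 share was 35.3%, 31.3%, 31.5% and 31.0%. Its fall thus lay almost wholly between the first and second bin. The Hba-x share was 57.2%, 55.0%, 54.4% and 50.0%, lower in each bin than in the one before. The adult-type beta share was 1.19%, 1.24%, 1.13% and 2.10%. In the late maturation list Car2 (carbonic anhydrase) held 45.0% of the UMIs.

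The 2 erythroid-like cells with the highest Hbb-bh1 shares were also the 2 with the least globin. The cell at 85.7% had 75 Hbb-y and 451 Hbb-bh1 UMIs, a globin share of 13.1% and 8297 UMIs in all. The cell at 84.3% had 88 Hbb-y and 471 Hbb-bh1 UMIs, a globin share of 13.8% and 8668 UMIs in all. Their Hba-x shares, 77.6% and 75.5%, were the highest of all erythroid-like cells, and their adult-type beta UMIs were Hbb-bs with 1 exception (16 against 1 of Hbb-bt, and 13 against 0). The next cell, at 66.6%, had 46672 UMIs, 1475 of Hbb-y and 2938 of Hbb-bh1, and a globin share of 17.6%. Without the first pair, the Spearman correlation of Hbb-bh1 share with globin share was -0.56 over 151 cells, and the difference between the highest and lowest bin -8.98 points.

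Few genes outside the globins were past 2-fold between the outer bins when counted per non-globin UMI. Of 6885 genes tested, 261 (3.79%) were 2-fold higher and 506 (7.35%) 2-fold lower in the highest bin than in the lowest, with no test possible. Per UMI of all genes the counts were 130 higher and 893 lower, since each log2 ratio then moves by -0.27, which also takes the list medians given next that lie above 0 to below it. The median log2 ratio over all 6885 genes was -0.09. Of 15 heme synthesis genes tested, 0 were 2-fold higher and 0 were 2-fold lower (median log2 ratio 0.10). Alas2 stood highest at 1.65 times (1.52 to 1.80), followed by Urod, a later enzyme of the pathway, at 1.44 times, and the lowest were the mitochondrial transporters Abcb10 at 0.800 and Tmem14c at 0.894 times. Of 20 red cell membrane and late maturation genes, 0 were past 2-fold in either direction (median log2 ratio 0.25), with the blood group gene Rhd at 1.74 times and Tent5c at 1.54 times at the top, and the membrane skeleton genes Epb41 at 0.819 and Sptb at 0.832 times at the bottom. Of 4 genes for heme handling, 0 passed in either direction (median log2 ratio -0.09): the heme exporter Flvcr1 stood at 1.49 times and Hmox2 at 0.960 at the top, the heme-regulated kinase Eif2ak1 at 0.866 and Abcg2 at 0.923 at the bottom.

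Among erythroid transcription factors 0 of 14 were 2-fold higher and 1 was 2-fold lower (median log2 ratio 0.06). Over all 6885 genes tested, 3.79% were higher and 7.35% lower. That gene was the corepressor Cbfa2t3, at 0.434 times (0.239 to 0.764) and 19 UMIs in the highest bin against 42 in the lowest. Klf3 stood at 1.59 times and Gfi1b at 1.30 times at the top, and Nfe2l2 at 0.782 was next lowest. Klf1, the activator of the beta-type locus, stood at 1.06 times (0.913 to 1.24), and Gata1 at 0.936 (0.746 to 1.18).

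Of 10 globin switching regulators tested, 0 were 2-fold higher and 3 were 2-fold lower (median log2 ratio -0.13). Over all 6885 genes tested, 3.79% were higher and 7.35% lower. Calls depend on the count minimum: the number of lower genes fell from 506 to 49 with at least 50 UMIs. Fewer genes are tested at that minimum, so these numbers are not shares. Nr2c2, a nuclear receptor of a repressor complex on embryonic beta-type genes, stood at 0.320 times (0.0910 to 0.927) with 5 UMIs in the highest bin against 15 in the lowest. Igf2bp3 stood at 0.349 times on 4 against 11 UMIs, with an interval of 0.0811 to 1.18 that reaches past 1. Igf2bp1 stood at 0.356 times (0.202 to 0.604) on 20 against 54 UMIs, and of these 3 genes only Igf2bp1 reaches the minimum of 50 UMIs. At the top were Zbtb7a, a repressor of embryonic globins, at 1.26 times, and the demethylase gene Kdm1a at 1.21 times. Bcl11a, a repressor of embryonic and fetal globin genes, had 1 UMI in all 153 erythroid-like cells, Sox6 had 1 and Myb had 2. In the megakaryocyte-like cluster Bcl11a stood at 63.4 CPM and Myb at 70.3 CPM.

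Over the 153 cells, genes among those that followed globin share most closely (Spearman, out of 5545 genes) were Alas2 (0.59), the ribosomal protein genes Rpl17 (0.48), Rpl28 (0.48) and Rpl13a (0.47), the metallothionein genes Mt2 (0.48) and Mt1 (0.47), which bind zinc and copper, and Nudt4 (0.46). The lowest were Npm1 (-0.55), the nucleolar chaperone nucleophosmin, Ddah1 (-0.47), Ybx1 (-0.46), Slc25a4 (-0.45), the glycolytic enzyme gene Pkm (-0.44), Hnrnpa1 (-0.42), mt-Atp6 (-0.41) and mt-Nd1 (-0.40). Mt2 and Mt1 ran opposite to the Hbb-bh1 share more closely than they ran with globin share (-0.68 and -0.67). Mt2 stood at 9274 CPM of non-globin UMIs in the highest bin, against 2235 in the lowest.

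The Hba-a1 share of Hba-a1 plus Hba-a2 fell into 2 ranges among the erythroid-like cells. It ran from 59.0% to 84.7% per cell, with the fullest bins of 2 points at 66% to 68% (23 cells) and 78% to 80% (27 cells), and 8 cells between 72% and 76%. A limit of 74%, set after the values were seen, left 72 cells at or over it and 81 under it. Since it is a cut through a per-cell score it defines ranges, not cell types, and what follows describes them without a test. Depth was alike in both, with a median of 33606 UMIs at or over the limit and 32277 under it. The median globin share was 33.4% at or over the limit and 28.9% under it, and the median mitochondrial share was 1.59% at or over the limit and 2.06% under it. The part of mitochondrial share in what follows was not tested.

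The ranges differed in the other globins. The median Hbb-bh1 share was 27.6% (22.2% to 53.4%) in the 72 cells at or over the limit, against 36.1% (25.9% to 85.7%) in the 81 cells under it. Cells over the limit had more Hbb-y (159988 against 120542 CPM) and about as much Hbb-bh1 (64167 against 67706.5 CPM). Hba-x levels lay close together, at 59580.0 CPM over the limit against 57793.5 CPM under it. The Hbb-bh1 share was lower over the limit in each bin of globin share: 34.1% against 39.8% in the lowest bin, 29.8% against 35.9% and 27.5% against 34.3% in the next ones, and 28.0% against 32.5% in the highest. Cells over the limit were 9 of 39, 15 of 38, 21 of 38 and 27 of 38 cells of the bins from lowest to highest. Over all 153 cells the Spearman correlation of Hba-a1 share with Hbb-bh1 share was -0.67.

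**Figure D3:**
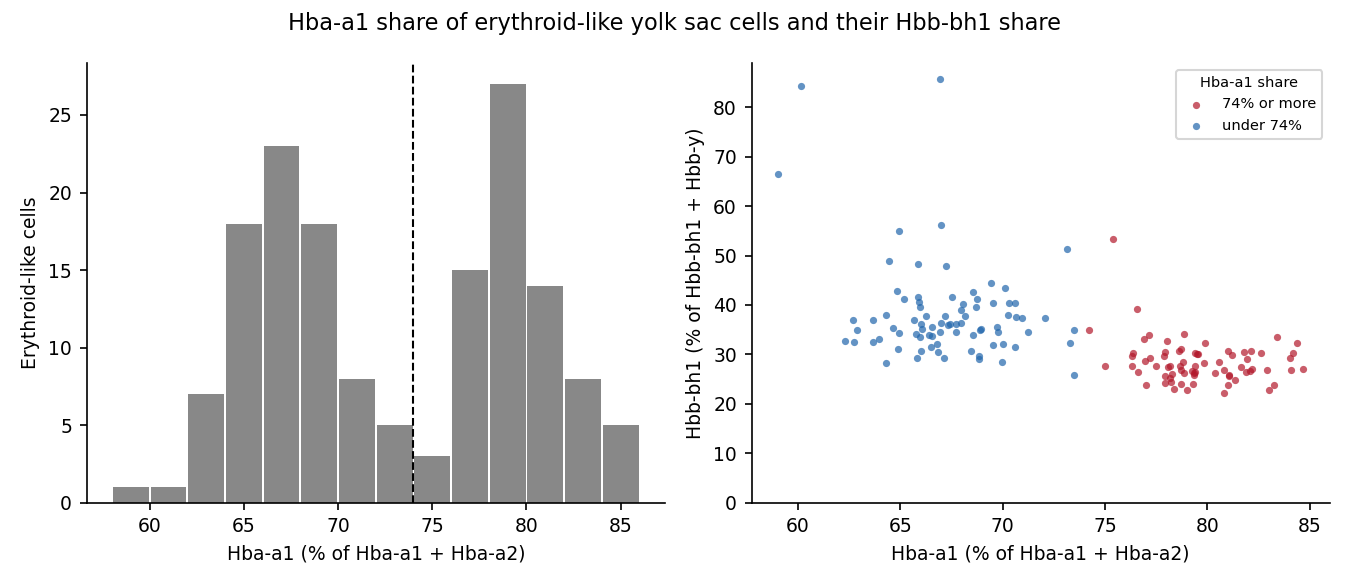
Left, the number of erythroid-like YS cells (y axis) by Hba-a1 share of Hba-a1 plus Hba-a2 in percent (x axis, bins of 2 points), with the limit of 74% dashed. Right, the Hbb-bh1 share (%, y axis) of each cell against its Hba-a1 share (%, x axis), where the 72 cells at or over the limit (red) had a median of 27.6% and the 81 under it (blue) 36.1%.

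Hbb-bs and Hbb-bt were used unequally from cell to cell. Among the 117 erythroid-like cells with at least 20 adult-type beta UMIs, Hbb-bt made up 0 to 100% of their sum (quartiles 11.5%, 59.5% and 85.6%), with a variance 66.9 times that of counting error. In 26 of these cells Hbb-bt was under 10%, and in 24 it was over 90%. The same was seen in cells with more counts: of 40 cells with at least 100 such UMIs, 7 were under 10% and 13 over 90%. A cell with mainly Hbb-bs held 306 Hbb-bs and 4 Hbb-bt UMIs, and a cell with mainly Hbb-bt held 35 Hbb-bs and 934 Hbb-bt UMIs. The cell with the most adult-type beta UMIs held both, 588 of Hbb-bs and 953 of Hbb-bt. The 10 cells with the most held 38.1% of all 15793 adult-type beta UMIs.

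The share of Hbb-bt moved with the Hba-a1 ranges, whose genes lie on the other chromosome. Of cells with at least 20 adult-type beta UMIs, 55 were at or over the 74% limit and 62 under it. Hbb-bt was over 90% in 20 of the 55 and in 4 of the 62, and it was under 10% in 2 of the 55 and in 24 of the 62. The median Hbb-bt share was 83.7% at or over the limit and 17.0% under it. Hbb-bt stood at 3084 CPM over the limit against 569.7 CPM under it, and Hbb-bs at 963.6 against 1277 CPM. By bin of globin share, the pooled Hbb-bt share at or over the limit was 42.3% against 42.8% under it in the lowest bin, 79.4% against 24.95% and 77.6% against 24.3% in the next ones, and 77.8% against 29.5% in the highest. The closeness in the lowest bin rested on 1 cell of 250 Hbb-bs and 10 Hbb-bt UMIs. With the cell of most adult-type beta UMIs left out of each range, a choice made after the data were seen, the lowest bin stood at 83.5% (78.3 to 87.97) at or over the limit against 52.3% (49.6 to 55.0) under it. In the other bins the shares were then 68.6% to 82.2% at or over the limit against 17.6% to 31.3% under it.

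**Figure D4:**
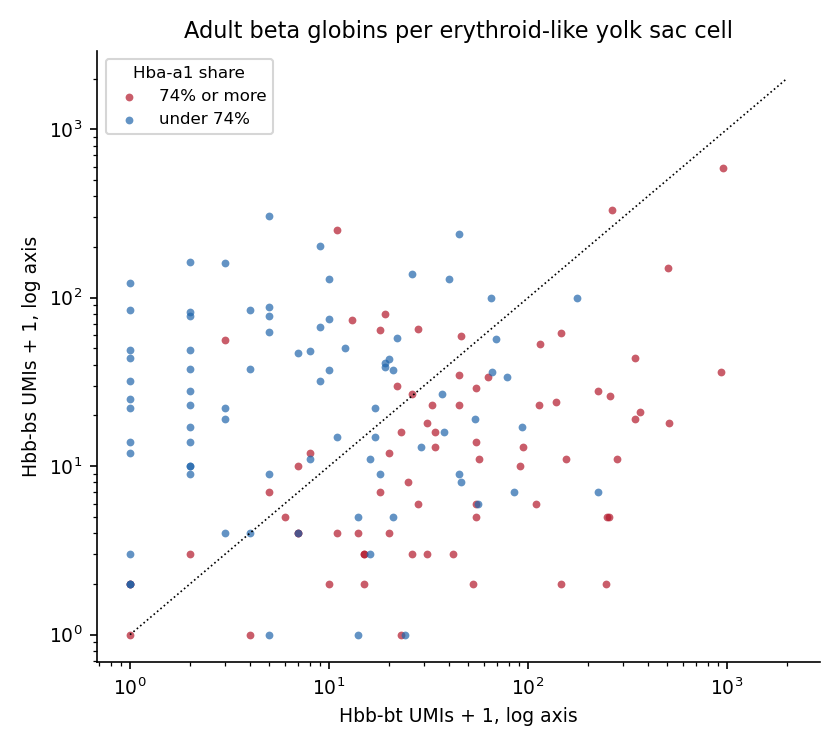
Each point is an erythroid-like YS cell, with its Hbb-bt UMIs plus 1 on the x axis and its Hbb-bs UMIs plus 1 on the y axis (both log axes), coloured by whether its Hba-a1 share was 74% or more (red) or under 74% (blue). The dotted line marks equal counts. Among cells with at least 20 adult-type beta UMIs, those below 10% or above 90% Hbb-bt lie away from it on either side. Cells with few such UMIs can lie near it whatever their share.

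Some other genes differed in pooled level between the same ranges. Of 4873 non-globin genes with at least 50 UMIs, 42 (0.862%) were 2-fold higher and 74 (1.52%) 2-fold lower at or over the 74% limit than under it. The following are the 6 of largest ratio each way, chosen after their values were seen and leaving out mitochondrial genes and unnamed gene models. Several were seen in few cells: Fos had UMIs in 22 of 72 cells at or over the limit and in 4 of 81 under it. Higher were Fos, an early response transcription factor, at 10.8 times (4.31 to 34.9) on 45 against 5 UMIs, Hsd3b6 at 4.94 times, Mt2 at 4.39 times (4.25 to 4.54), Rgcc at 4.30, Ndrg1 at 4.26 and Adm2 at 4.17 times. Lower were Prss50 at 0.138 times (0.0640 to 0.267), H1f0, a linker histone gene, at 0.139 times (0.0992 to 0.190), Gja6 at 0.163, Ddah1 at 0.227, Cdk5rap1 at 0.235 and Hells, a chromatin remodeller, at 0.273 times. Mt2 was at 9331 CPM of non-globin UMIs in the median cell at or over the limit, against 1678 under it. H1f0 was seen in 17 of 72 cells at or over the limit and in 54 of 81 under it.

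In cells of low globin share the composition differed by cluster. The mean empty droplet of the YS library held 54.2 UMIs, 3.15% of them globin, and an Hbb-bh1 share of 35.6% (35.1 to 36.0), a measure of free RNA. In the clusters other than the erythroid-like and megakaryocyte-like ones, pooled Hbb-bh1 shares lay between 29.1% (24.4 to 34.1, macrophage-like) and 37.5% (30.9 to 44.5, an unnamed cluster). Adult-type beta made up 7.04% of beta-type UMIs (5.36 to 9.04) in granulocyte and mast cell-like cells, where 1 cell held 21 of the 54 Hbb-bt UMIs. It made up 5.04% (3.06 to 7.76) in macrophage-like cells and 5.02% (3.81 to 6.47) in progenitor-like cells without the cell of 12.02%. In the rest of these clusters it ran from 0% (0 to 1.67, extraembryonic endoderm-like) to 3.06% (1.41 to 5.73, endothelial-like). In empty droplets it was 1.03%. The part of free RNA in these levels was not tested.

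The megakaryocyte-like cluster stood apart. Its 58 cells had an Hbb-bh1 share of 74.1% (72.3 to 75.9) over 2299 UMIs, and 52 of them also held Klf1, at 163 CPM in the cluster against 231 CPM in erythroid-like cells and 0 to 4.04 CPM in each other cluster. The platelet chemokine gene Pf4 had UMIs in 11 of those 52 cells. These cells were singled out after their values were seen. The 20 of them with at least 20 UMIs of Hbb-bh1 plus Hbb-y carried this value, with a median share of 82.2% (16.0% to 97.0%) and a pooled share of 80.7% (78.8 to 82.4). A minimum on that sum lets in cells through a high Hbb-bh1 count, so their share is a description only. The 32 cells under the minimum had a pooled share of 40.3% (34.97 to 45.8), on 133 Hbb-bh1 and 197 Hbb-y UMIs. Chosen by Hbb-y instead, the 16 cells with at least 10 Hbb-y UMIs had a pooled share of 76.5% (74.3 to 78.6). The globin share of the 52 cells was 0.0111% to 1.89%, with a median of 0.0625%. A cell of them had 24 Hbb-y and 344 Hbb-bh1 UMIs among 73922, and another 4 and 128 among 31574. In the 6 cells of the cluster without Klf1 the share was 35.9% (21.2 to 52.8) on 39 UMIs. Adult-type beta made up 17.2% of beta-type UMIs in the 52 cells, against 1.39% in erythroid-like cells and 1.03% in empty droplets, and 4 cells held 251 of those 468 UMIs. The cell with the most globin, at 1.89%, had 41 Hbb-bs and 60 Hbb-bt UMIs beside 8 of Hbb-y and 38 of Hbb-bh1.

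**Figure D5:**
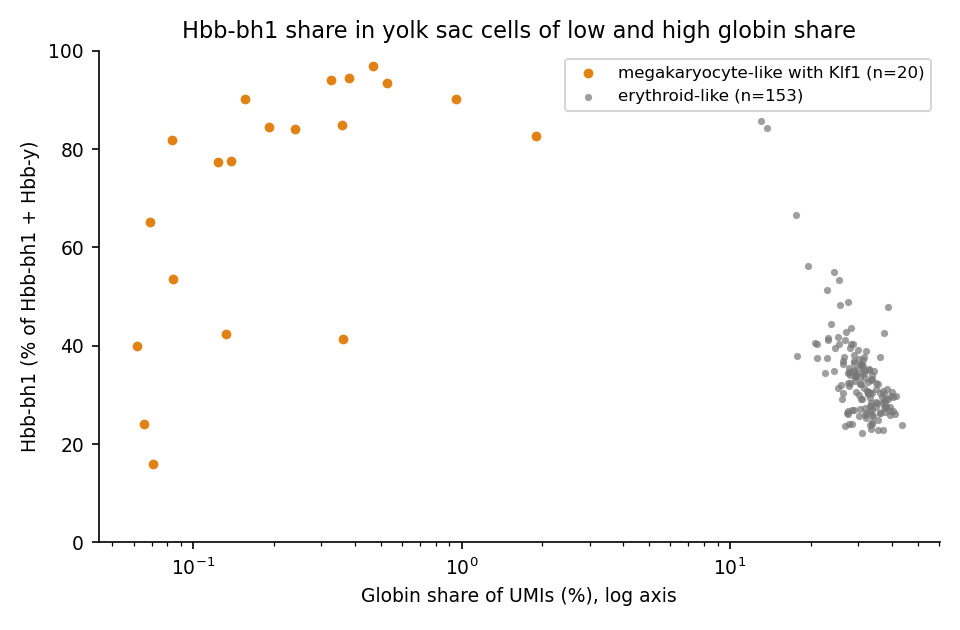
The Hbb-bh1 share of Hbb-bh1 plus Hbb-y (%, y axis) against the globin share of UMIs (%, log x axis) for the 20 megakaryocyte-like YS cells with Klf1 and at least 20 such UMIs (orange) and the 153 erythroid-like cells (grey). The orange cells have a median of 82.2% (16.0% to 97.0%). The minimum lets in cells through a high Hbb-bh1 count, so their share is a description only.

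Hbb-bt was also found in the other blood clusters. The hematopoietic progenitor-like, granulocyte and mast cell-like and macrophage-like cells, 221 without the cell of 12.02% globin, held 125 Hbb-bt UMIs in 56 cells, or 14.8 CPM (12.3 to 17.7). The 342 cells of the remaining clusters, which are neither blood-like nor erythroid-like, held 16 Hbb-bt UMIs in 14 cells, or 2.07 CPM (1.18 to 3.36). Hbb-y, by contrast, stood at 172 CPM in the blood-like cells and 175 CPM in the others. Hbb-bt thus made up 7.95% of Hbb-bt plus Hbb-y (6.66 to 9.40) in the blood-like cells, against 1.17% (0.669 to 1.89) in the others and 0.905% in empty droplets. The highest blood-like cell held 21 Hbb-bt UMIs, and 104 were left without it. Hbb-bs had 6 UMIs in the blood-like cells and 12 in the others.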

How the data were processed

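The deposited values were raw counts of UMIs per gene and barcode, 1 matrix per library, with 30294678 UMIs in the YS library and 73915225 in the EB library. The genome build was mm10, per the submitters' processing notes; for the aligner and counter, no name is given in the sources used here. No normalization had been applied to the counts, as the whole-number values show.

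The UMI minimum was 10% of the 99th percentile of the 3000 largest barcode totals in each library. YS cells were clustered with scanpy 1.11.5 (2000 variable genes without any globin, 30 components, 15 neighbours, Leiden resolution 1, seed 1), and clusters were named from marker lists. Empty droplets were the barcodes after rank 10000, up to rank 50000. Ratios between bins were computed on CPM of non-globin UMIs for genes outside the globins with at least 10 UMIs, and called past 2-fold. Those of the 7 globins were computed per UMI of all genes unless stated otherwise. A group at 0 was set to a floor of 3 counts. Named genes were the 7 globins, the ends of each gene list and genes from the 8 most like Hbb-y or globin share, some of which are not reported here. Each library is 1 sample, so nothing was tested and every interval covers counting error only. The scripts were tested on simulated data. The members and gene lists were chosen with earlier results of these data known. Alternatives covered cell limits, clustering, free RNA, ordering, denominators and cells left out.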

Additional observations from a re-analysis of the deposited data

Results flagged for a closer look

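Barcodes below the cell minimum were outside the comparisons above, and some in the YS library had globin shares that no EB barcode of that size reached. Of 104 YS barcodes with 1000 UMIs up to the minimum and at most 10% mitochondrial UMIs, 11 held at least 10% globin, against 0 of 140 EB barcodes. Those 11 had a median of 4932 UMIs and a median globin share of 22.4% (11.97% to 34.2%). Pooled, their Hbb-bh1 share was 34.6% (33.5 to 35.7), their Hba-x share 55.8% (54.2 to 57.3) and their adult-type beta share 1.14% (0.906 to 1.41).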

How the results depend on the processing

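No Hbb-bh1, Hba-x or adult-type beta difference between the highest and lowest bin changed direction under the alternatives run. The YS over EB difference of each gene kept its side of 2-fold. These alternatives were not run for the Hba-a1 ranges, the use of Hbb-bs and Hbb-bt or the composition in cells of low globin share. No paired analysis was possible because each group has 1 library. The globin share of the erythroid-like cells was 31.56% with a UMI minimum of 1000, 31.8% with the higher minimum, 31.67% with a mitochondrial limit of 5%, 31.28% in all cells of at least 10% globin, 31.65% with free RNA subtracted and 31.04% as a mean over cells. As means over cells, the Hbb-bh1 share was 33.7%, the Hba-x share 53.7% and the adult-type beta share 1.29%. The Hbb-bh1 difference between the highest and lowest bin was -10.97 points with the minimum of 1000, -10.07 in cells of at least 10% globin, -11.84 as a mean over cells, -8.87 between the outer groups of a split in 3, and -4.28 when ordered by the late maturation list. The Hba-x difference was -4.02 with the higher minimum, -4.88 as a mean over cells and -7.22 with the late list. The adult-type beta difference was 0.822 with the minimum of 1000, 0.799 with the higher one, 0.803 with the mitochondrial limit, 0.624 as a mean over cells and 0.837 in the split in 3. The cause of these shifts was not tested.

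Genes 2-fold higher and lower in the highest bin numbered 502 and 1143 with no count minimum, 37 and 49 with at least 50 UMIs, and 130 and 893 per UMI of all genes; ordered by the late list, 308 were higher and 300 lower, without the excess of lower genes. After the data were seen, cells were left out in 2 ways. Without the 2 cells of highest Hbb-bh1 share, the globin share was 31.67%, the Hbb-bh1 difference -8.98 and the adult-type beta difference 0.780. Without the 4 cells of 5% or more adult-type beta, the globin share was 31.44%, the Hba-x share 54.4%, the adult-type beta share 1.17% and its difference 0.516. With 1 library of each kind, differences between samples, stages and embryos could not be measured, and low counts limit the regulators and Hbb-bs outside the erythroid-like cells.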
